A study of Mus musculus with 10 samples.

Results

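The liver of aged mice was compared with that of young adult mice on 2 of the 10 arrays of a study of ageing tissues. Male mice of the outbred ICR strain were used, at 28 months of age (RNA of 9 mice pooled in equal amounts) or at 4 months of age (RNA of 6 mice pooled in equal amounts). All were fed the AIN-93 diet, housed singly and kept free of specific pathogens. The aged mice were obtained when 8 months old and the young adults when 2 months old, so time on that diet and in that housing differed with age and cannot be told apart from it. The study also sampled spleen, jejunum, ileum and distal colon, each with 1 array per tissue and age. Each pool was read on 1 Affymetrix mouse genome array, which measures RNA through probe sets, groups of short probes for one transcript. Both liver columns were taken, and 12116 of the 18194 genes that the array's probe sets name had a signal above background in liver at either age.

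With 1 array per age there is no spread between animals and no test of any difference. The number of arrays limits the precision, and the agreement of separate probe sets of one gene is the only internal check. That check covers the array and not the animals, since all probe sets of a gene read the same pooled RNA. Signals are given in arbitrary units, scaled so that the trimmed mean of each array was 500 units, and background was set at a floor of 111 units. A ratio is the 28-month signal over the 4-month signal, after signals under the floor were raised to it, and is called at least N-fold where one side was at the floor. Log2 ratios given for single probe sets can be such bounds too, and not all are marked. Signals of different genes come from different probes and are not compared with each other.

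Liver tissue is mostly hepatocytes, which secrete plasma proteins, make bile acids and glucose, detoxify drugs and handle lipids. Kupffer cells are the resident macrophages of its blood sinusoids, where they clear particles, bacteria and old red cells. In the acute phase response, cytokines such as IL-6 and IL-1 act on hepatocytes through STAT3, C/EBP and NF-kB factors, and hepatocytes then release serum amyloid A, orosomucoids and lipocalin-2. Cholesterol synthesis in hepatocytes is set by the sterol-sensing factor SREBP-2, and fatty acid oxidation by PPAR-alpha.

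The tissue label was checked on 19 hepatocyte markers, all of which were measured. Their summed signal was 616586 units at 28 months and 622670.0 units at 4 months. Alb, which encodes serum albumin, had 50608 units at 28 months and 51037 units at 4 months, and Ttr, the thyroxine carrier, had 41013 units at 28 months and 41279 units at 4 months. Only Tat, the tyrosine-degrading aminotransferase, was past 1.5-fold among the 19, at 10722 units at 28 months, against 6902 units at 4 months, 1.55-fold higher. Over all probe sets the 2 liver arrays had a Pearson correlation of 0.992. The control probe sets at the 3' end exceeded those at the 5' end by 2.01 at 28 months and 1.70 at 4 months for actin on the log2 scale, and by 0.98 and 0.53 for Gapdh. That 3' bias was thus larger on the 28-month array, and its part in the results below was not tested.

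Of the 12116 measured genes, 156 (1.29%) had at least a 2-fold higher signal at 28 months, and 20 (0.165%) had a signal lower by 2-fold or more. At 1.5-fold the counts were 479 (3.95%) higher and 98 (0.809%) lower. The median ratio of all measured genes was -0.02 on the log2 scale, with quartiles of -0.14 and 0.12. Ratios of 45.7% of them were above 0, the share to set beside the counts of signs given for lists below. Most of the large differences thus ran one way: 88.6% of those past 2-fold had the higher signal at 28 months. The 4-month signal of 23 of the 156 lay under the floor, as did the 28-month signal of 1 of the 20. With the floor raised to the 75th percentile of all signals, the counts were 57 higher and 8 lower among 7096 measured genes.

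**Figure D1:**
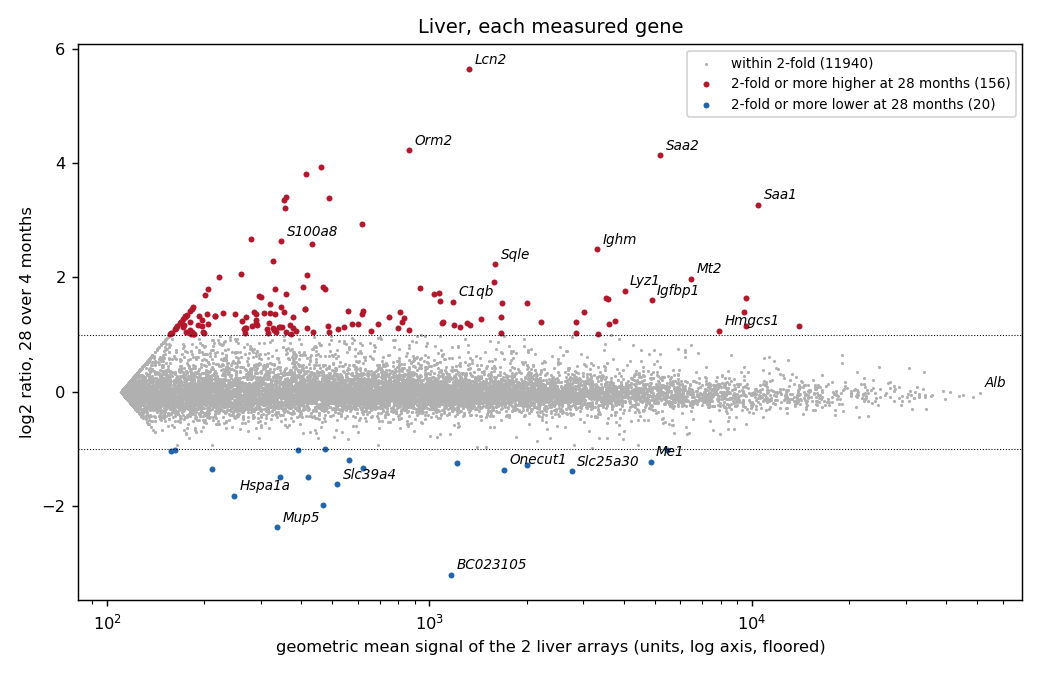
Each point is 1 of the 12116 genes measured in liver, with the geometric mean of the 28-month and 4-month signals on the x axis (units, log axis, signals under the floor raised to it) and the log2 ratio of 28 over 4 months on the y axis. The 156 genes 2-fold or more higher are red, the 20 genes 2-fold or more lower are blue, and Alb lies at -0.01.

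Lists of genes were grouped into a hepatocyte, a Kupffer and immune, a stress and a lipid program. The lists were chosen with earlier results of these data known, so their shares past 1.5-fold may depend in part on that choice. Of 225 measured genes in the Kupffer program, 67 (29.8%) were past 1.5-fold higher at 28 months and 1 was past it lower, with a median log2 ratio of 0.25. In the stress program 55 of 345 (15.9%) were higher and 6 lower, with a median of 0.05. The lipid program had 26 of 290 higher (8.97%) and 9 lower (3.10%), with a median of 0.00. Among 317 genes of the hepatocyte program 27 (8.52%) were higher and 17 (5.36%) lower, with a median of 0.01. Set against 3.95% higher and 0.809% lower over all measured genes, the Kupffer program thus had the highest share of higher genes of the 4, and the hepatocyte program the highest share of lower genes.

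**Figure D2:**
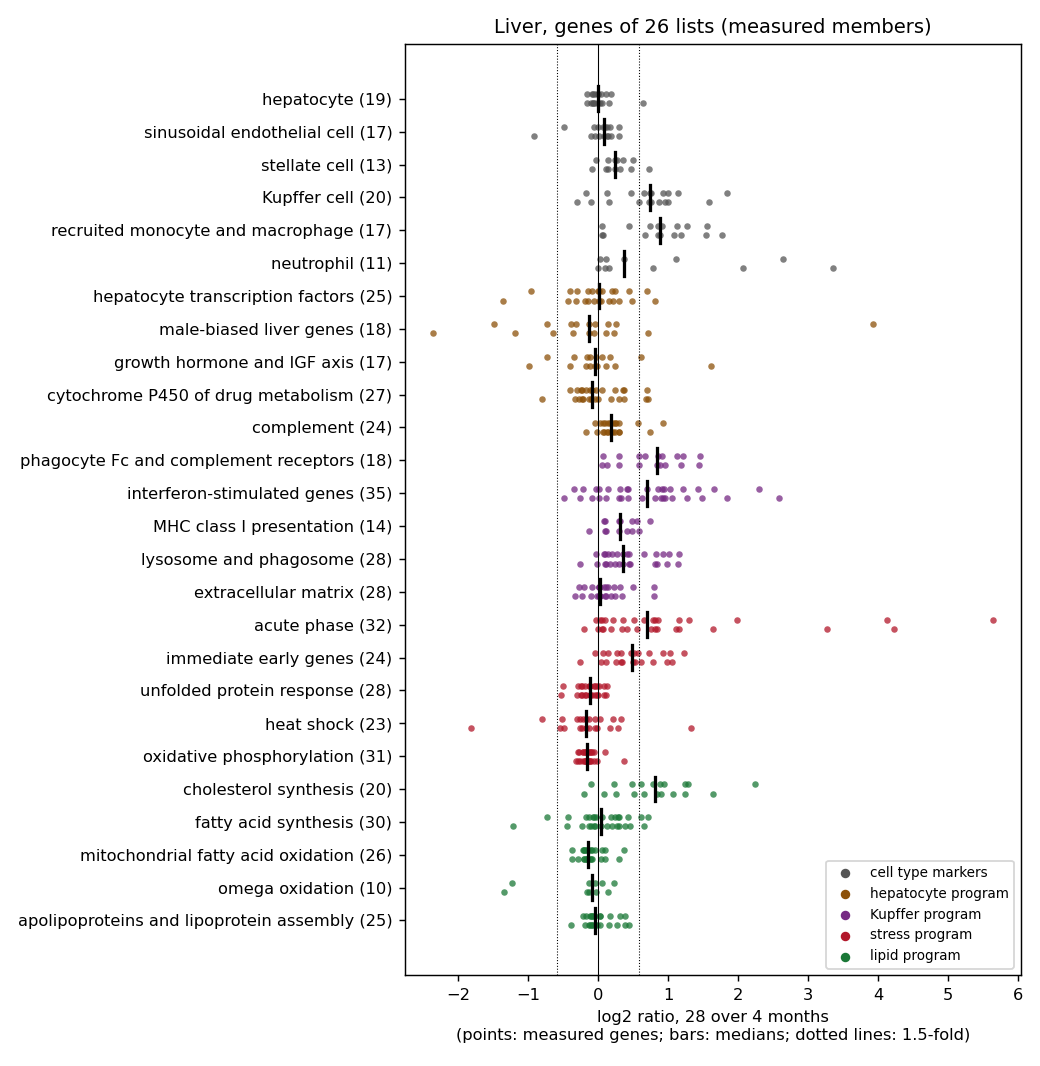
Each point is a measured gene of 1 of 26 lists (number of measured genes in parentheses), placed by its log2 ratio of 28 over 4 months in liver, with black bars for list medians and dotted lines at 1.5-fold. Medians lie at 0.75 for Kupffer cell markers, 0.81 for cholesterol synthesis and 0.70 for the acute phase, while the hepatocyte markers centre on -0.01 and oxidative phosphorylation on -0.16.

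Among hepatocyte transcription factors, 2 of 25 were past 1.5-fold higher and 2 lower, with a median log2 ratio of 0.01. Onecut1, a homeodomain factor of hepatocyte and bile duct differentiation also called HNF6, had 1062 units at 28 months, against 2725 units at 4 months, 2.57-fold lower. Its 2 probe sets gave the same log2 ratio of -1.36. Foxa1, a forkhead factor that opens liver enhancers, had 1011 units at 28 months, against 1964 units at 4 months, 1.94-fold lower on 1 probe set. The related Foxa2 was on the same side but within 1.5-fold, at 1288 and 1743 units, and Foxa3 was on the other side, at 2469 and 1775 units, at 28 and 4 months. Members of one factor family therefore lay on both sides of 0. Hnf4a, the nuclear receptor at the centre of the hepatocyte network, had 10434 units at 28 months and 11537 units at 4 months. Esr1, the oestrogen receptor alpha, had 1675 units at 28 months, against 1034 units at 4 months, 1.62-fold higher, with its 2 probe sets at 0.70 and 0.85. Cebpd, a C/EBP factor of the acute phase, had 1373 units at 28 months, against 787 units at 4 months, 1.75-fold higher, and the related Cebpb had 8401 units at 28 months and 6183 units at 4 months. Cebpa, the C/EBP factor of mature hepatocytes, had 3169.6 units at 28 months and 4197 units at 4 months, on the lower side within 1.5-fold.

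Growth hormone signals through STAT5 in the liver and sets much of the difference between male and female livers. Of 17 measured genes of the axis, 2 were past 1.5-fold higher and 2 lower. Socs2, a STAT5 target that feeds back on the growth hormone receptor, had 2269.6 units at 28 months, against 4492 units at 4 months, 1.98-fold lower, and its 4 probe sets ran from -0.99 to -0.30. Cish, another such inhibitor, had 898 units at 28 months, against 1493 units at 4 months, 1.66-fold lower. Both inhibitors were thus lower at 28 months, while the receptor and the main hormone product were close to equal. Ghr, the growth hormone receptor, had 15946 units at 28 months and 16518 units at 4 months, and Igf1, insulin-like growth factor 1, had 13261 units at 28 months and 14462 units at 4 months. The binding protein Igfbp1, made by hepatocytes in fasting and stress, had 8524 units at 28 months, against 2804 units at 4 months, 3.04-fold higher on 1 probe set.

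Of 18 measured male-biased liver genes, 5 were past 1.5-fold lower and 2 higher, with a median of -0.14. Elovl3, a fatty acid elongase, had 4878 units at 28 months, against 8118 units at 4 months, 1.66-fold lower. Hsd3b5, a steroid dehydrogenase, had 6752 units at 28 months, against 10582 units at 4 months, 1.57-fold lower. Obp2a, an odorant-binding protein, had 249.7 units at 28 months, against 704 units at 4 months, 2.82-fold lower. These differences did not extend to the whole list: Cyp7b1 had 18052 and 16377 units and Cyp2d9 14582 and 13504 units at 28 and 4 months. Mup5, a major urinary protein with near-identical copies that its probes may share, had the lowest ratio of the list at 148 units at 28 months, against 765 units at 4 months, 5.15-fold lower. Moxd1, a monooxygenase-like protein, had the highest at 1796 units at 28 months, against 119 units at 4 months, 15.1-fold higher on 1 probe set. Susd4 was also on the higher side, at 862 units at 28 months, against 528 units at 4 months, with 2 probe sets at 0.71 and 0.75. In the list of female-biased genes 4 of 14 were higher and 2 lower. Nipal1, a magnesium transporter family member, had 617 units at 28 months, against 178 units at 4 months, 3.46-fold higher, with both probe sets past 2-fold. Trim24 had 1044 units at 28 months and 621 units at 4 months, but its 2 probe sets differed in sign (-0.30 and 0.75). Neither sex-biased list therefore lay wholly on one side.

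Metabolic zonation was read from pericentral and periportal genes, which hepatocytes express near the central vein or near the portal tract. Of 18 pericentral genes 1 was past 1.5-fold, Slc13a3, a dicarboxylate carrier, with 1303 units at 28 months, against 535 units at 4 months, 2.43-fold higher and both probe sets past 2-fold. Of 16 periportal genes 1 was past it, Hsd17b6, a steroid dehydrogenase, with 4981 units at 28 months, against 8178 units at 4 months, 1.64-fold lower. The medians were 0.08 for pericentral genes and -0.13 for periportal genes. The defining pericentral enzymes Glul, glutamine synthetase, and Cyp2e1 stayed within 1.5-fold, with 10179 and 8826 units for Glul and 30643 and 32962 units for Cyp2e1 at 28 and 4 months.

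The urea cycle, amino acid breakdown and glucose metabolism differed little. None of 8 urea cycle genes and none of 24 genes of gluconeogenesis and glycolysis was past 1.5-fold, and Tat was the only one of 34 amino acid catabolism genes past it. Pck1, the gluconeogenic carboxykinase, had 13801 units at 28 months and 10276 units at 4 months, and G6pc, which releases free glucose, had 4527 units at 28 months and 5792 units at 4 months. Among 27 drug-metabolising P450 genes 3 were higher and 1 lower. Cyp3a13 had 3425 units at 28 months, against 2086 units at 4 months, 1.64-fold higher, and Cyp39a1, an oxysterol hydroxylase, had 342 units at 28 months, against 596 units at 4 months, 1.74-fold lower. The more general drug enzyme Cyp3a11 had 26822 units at 28 months and 31314 units at 4 months, and Cyp2c29 had 15703 units at 28 months and 20734 units at 4 months, both within 1.5-fold. In conjugation and drug export 3 of 39 were higher and 2 lower. Gstm3, a glutathione transferase, had 3256 units at 28 months, against 2083 units at 4 months, whereas Gstt1, another, had 6005 units at 28 months, against 9491 units at 4 months. Single enzymes thus stood out against lists that were centred near 0.

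Bile acid genes were also near 0, with 1 of 29 higher and 1 lower. Cyp7a1, the rate-limiting enzyme of the classic pathway, had 2247 units at 28 months and 2034 units at 4 months. Cyp8b1, which directs synthesis toward cholic acid, had 3175 units at 28 months, against 5101 units at 4 months, 1.61-fold lower. Abcc4, an export pump of the sinusoidal side, had 271 units at 28 months, against 163 units at 4 months, 1.67-fold higher. The carboxylesterase Ces1e had 2044 units at 28 months, against 3868 units at 4 months, 1.89-fold lower, the only one of 9 in its family past 1.5-fold.

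Of the clotting and complement genes, 2 of 25 coagulation genes (8%) and 2 of 24 complement genes (8.33%) were past 1.5-fold higher and none lower. The share over all measured genes was 3.95% higher. Pros1, protein S, had 2119 units at 28 months, against 1314 units at 4 months, 1.61-fold higher, and Thbd, thrombomodulin, had 215 units at 28 months and 107 units, under the floor, at 4 months. The 2 complement genes were C1qa and Cfp, which macrophages express, and the probe sets of Cfp differed in sign, at -0.20 and 0.74. Complement genes made by hepatocytes were slightly on the higher side, such as C9 with 23472 and 21269 units and Cfi with 24149 and 20444 units at 28 and 4 months, all within 1.5-fold. The list median was 0.18, and 21 of 24 ratios were above 0, against 45.7% over all measured genes.

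Genes of fetal liver and of hepatocyte tumours were 5 of 15 higher and none lower, with Dlk1 and Gpc3 under the floor at both ages. Krt8, a keratin of simple epithelia, had 8603 units at 28 months, against 4904 units at 4 months, 1.75-fold higher, and its 3 probe sets lay between 0.79 and 0.88. Its partner Krt18 had 6138 units at 28 months and 4221 units at 4 months, within 1.5-fold. Ly6d, a cell surface protein, had 648 units at 28 months, against 198 units at 4 months, 3.27-fold higher. Tspan8, a tetraspanin, had 276 units at 28 months and 78.3, under the floor, at 4 months, at least 2.49-fold higher, with both probe sets past 1.5-fold. Afp, alpha-fetoprotein, had 259.5 units at 28 months and 37.3 at 4 months on its brightest probe set. Its 3 measured probe sets ran from 0.10 to 1.23. All 3 had a 4-month signal under the floor, so each of these ratios is a bound. Igf2 and Mest, genes of fetal liver, had ratios of 0.01 and -0.02.

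Markers of Kupffer cells were 14 of 20 past 1.5-fold higher and none lower, against 3.95% higher over all genes, with a median log2 ratio of 0.75. Their summed signal was 40194 units at 28 months and 27922 units at 4 months. In bulk RNA, more cells of a type and more RNA per cell cannot be told apart. Clec4f, a lectin particular to mouse Kupffer cells, had 2211 units at 28 months, against 1208 units at 4 months, 1.83-fold higher. Vsig4, a receptor for opsonised particles, had 3844 units at 28 months, against 1989 units at 4 months, 1.93-fold higher. Timd4, a phosphatidylserine receptor of resident macrophages, had 360.3 units at 28 months, against 214 units at 4 months, 1.68-fold higher. These 3 resident-cell markers were thus higher by similar folds at 28 months. Cd5l, a macrophage-secreted lipoprotein-binding protein, had 5185 units at 28 months, against 2594 units at 4 months, and Csf1r, the receptor of the macrophage growth factor CSF1, had 6408 units at 28 months, against 3883 units at 4 months. C1qb, a chain of the first complement component, had 2047 units at 28 months, against 686 units at 4 months, 2.98-fold higher, with 3 probe sets from 1.08 to 1.58. Marco, a scavenger receptor, had the highest ratio of the list at 765 units at 28 months, against 215 units at 4 months, but its second probe set gave 0.25, against 1.83 for the first. The 0.25 is a bound, from 131 units at 28 months and 87.0 units, under the floor, at 4 months.

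Not every Kupffer marker was higher. Cd163, the haemoglobin scavenger receptor, had 756 units at 28 months and 854 units at 4 months. Id3, a factor of Kupffer cell identity, had 1421 units at 28 months and 1755 units at 4 months, and Slc40a1, the iron exporter ferroportin, had 8695 units at 28 months and 9369.8 units at 4 months. Spic, a factor of red-cell-clearing macrophages, was near the floor at 122 units at 28 months and under it at 4 months. The iron-handling genes had no common direction, with 3 of 28 higher and 1 lower. Hmox1, haem oxygenase 1, had 764 units at 28 months, against 356 units at 4 months, 2.14-fold higher. Hamp, hepcidin, had 14749 units at 28 months and 17046 units at 4 months. Its neighbour copy Hamp2 had 1289 units at 28 months, against 3125 units at 4 months, 2.42-fold lower, with its 2 probe sets at -1.28 and -0.33.

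Monocyte and recruited macrophage markers were 13 of 17 past 1.5-fold higher and none lower, with a median of 0.89 and a summed signal of 23397 units at 28 months against 10376 units at 4 months. Lyz2, the lysozyme of myeloid cells, had 3449 units at 28 months, against 1172 units at 4 months, 2.94-fold higher, and the closely related Lyz1, whose probes may share its RNA, had 7429.7 units at 28 months, against 2184 units at 4 months, 3.4-fold higher. Ms4a6d had 546 units at 28 months, against 187 units at 4 months, 2.92-fold higher, with both probe sets past 2-fold. Lgals3, galectin-3, had 1046 units at 28 months, against 461 units at 4 months, 2.27-fold higher. All 17 measured ratios of the list were above 0, though not all were past 1.5-fold. Plac8, a protein of myeloid cells, had 1322 units at 28 months, against 728 units at 4 months, and Cx3cr1, the fractalkine receptor, had 257 units at 28 months, against 163 units at 4 months. Ccr2, the monocyte chemokine receptor, had 183 units at 28 months and 177 units at 4 months. Trem2 had 172 units at 28 months and 164 units at 4 months, and Itgam and Gpnmb were under the floor at both ages.

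Neutrophil markers were split by gene: 5 of 11 measured were past 1.5-fold higher, none was lower, and 5 more were under the floor at both ages (Mmp9, Chil1, Mmp8, Ctsg and Fcnb). Their summed signal was 4210.0 units at 28 months and 1593 units at 4 months. S100a8, a calcium-binding alarmin, had 864 units at 28 months, against 139 units at 4 months, 6.21-fold higher, and its partner S100a9 had 532 units at 28 months, against 127 units at 4 months, 4.17-fold higher. Csf3r, the receptor of granulocyte colony-stimulating factor, had 261 units at 28 months, against 152 units at 4 months. Granule genes were uneven. Mpo and Elane, proteins of early granules, were close to the floor, with Mpo at 119 units and Elane at 136 units at 28 months and 86 and 122 units at 4 months. Prtn3, also a granule protease, had 1127 units at 28 months and 80.6 units, under the floor, at 4 months. Ngp, neutrophilic granule protein, had 238 units at 28 months and 84.4 units, under the floor, at 4 months, at least 2.15-fold higher.

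Lymphoid markers were uneven. In the plasma cell list 4 of 8 were higher, among them Ighm, the heavy chain of IgM, with 7873 units at 28 months, against 1397 units at 4 months, 5.64-fold higher, and 7 probe sets from 2.01 to 3.30. Mzb1, a chaperone of antibody-secreting cells, had 368 units at 28 months, against 142 units at 4 months, 2.58-fold higher. Irf4, Prdm1 and Tnfrsf17 were under the floor at both ages, and Xbp1, which hepatocytes also express, had 15733 units at 28 months and 17128 units at 4 months. B cell markers gave 1 of 7, Bank1, with 316 units at 28 months, against 198 units at 4 months, while Cd79a had 134 and 119.6 units at 28 and 4 months, and Pax5 and Cr2 were under the floor. T and NK cell markers gave 3 of 9. Ccl5, a chemokine of T cells, had 516 units at 28 months, against 235 units at 4 months, 2.19-fold higher, but Cd3e had 237 units at 28 months and 197 units at 4 months and Cd8a had 162 units at 28 months and 174 units at 4 months. None of 6 dendritic cell markers and none of 4 mast cell markers was past 1.5-fold. The part of these cell types in the Kupffer and interferon results was not tested.

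Few endothelial and stellate cell markers were past 1.5-fold. Of 17 markers of sinusoidal endothelium 1 was lower and none higher, with summed signals of 20496 units at 28 months and 19856 units at 4 months. The lower one was Lyve1, a hyaluronan receptor, with 501 units at 28 months, against 952 units at 4 months, 1.9-fold lower, and probe sets at -0.93 and -0.71. Stab2, the main hyaluronan scavenger of these cells, had 1517 units at 28 months and 1352 units at 4 months, and Clec4g, a lectin they share, had 4336 units at 28 months and 4469.7 units at 4 months. Among 13 stellate cell markers 1 was past 1.5-fold, Cygb, cytoglobin, at 249 units at 28 months, against 150.4 units at 4 months. The stellate list still lay on the higher side, with 11 of 13 ratios above 0 and a median of 0.24, against 0.09 for the endothelial list. Acta2, the smooth muscle actin of activated stellate cells, had 969.6 units at 28 months and 690.2 units at 4 months, within 1.5-fold. Matrix genes gave 2 of 28 higher and none lower, with a median of 0.03. Col3a1, a fibrillar collagen, had 1389 units at 28 months and 1494 units at 4 months. Col1a2, another, had 1149.7 units at 28 months and 1143 units at 4 months, and Col1a1 and Timp1 were under the floor at both ages. The pair past 1.5-fold were Vim, vimentin, at 2325 units at 28 months, against 1334 units at 4 months, and Ccn2, connective tissue growth factor, at 1622 units at 28 months, against 933 units at 4 months. Bile duct markers were 2 of 10 higher. These were Tff3 and Cd24a, the last with 611 units at 28 months, against 284 units at 4 months and 3 probe sets from 0.68 to 1.11. Krt19, which defines duct cells, had 123 units at 28 months and 101 units, under the floor, at 4 months, and Krt7 was under it at both ages.

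Receptors of phagocytes were among the most one-sided lists: 12 of 18 Fc and complement receptor genes were past 1.5-fold higher, none lower, and all 18 ratios were above 0. The probe sets were a weak check here: in none of the 5 genes with 2 or more measured were all of them 1.5-fold higher. Fcgr4, an activating IgG receptor, had 679 units at 28 months, against 249 units at 4 months, 2.73-fold higher. Itgb2, the beta chain of leukocyte integrins, had 677 units at 28 months, against 249 units at 4 months, 2.72-fold higher. Fcer1g and Tyrobp, signalling adaptors of these receptors, had 1201 and 1770.5 units at 28 months and 649 and 938 units at 4 months. Fcgr2b, the inhibitory IgG receptor, which liver endothelium also makes, had 3101 units at 28 months and 2529 units at 4 months, within 1.5-fold, with 4 probe sets from -0.08 to 0.29. Fcgr1, an activating receptor, had 182 units at 28 months, against 121 units at 4 months, and its second probe set gave 0.18. Of 25 scavenger and pattern recognition genes 9 were higher and none lower. Clec7a, the beta-glucan receptor dectin-1, had 1260.3 units at 28 months, against 594 units at 4 months, 2.12-fold higher. Clec4n, also called dectin-2, had 527 units at 28 months, against 166 units at 4 months, 3.18-fold higher, with both probe sets past 2-fold. Cd14, the lipopolysaccharide co-receptor, had 876 units at 28 months, against 486 units at 4 months, but its partner Tlr4 was near the floor at 116 units at 28 months and 95.5 at 4 months. Scara5, a ferritin receptor, had 2623 units at 28 months, against 1058 units at 4 months, and its 2 probe sets differed in sign, at -0.40 and 1.31.

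Within the phagosome and lysosome 9 of 28 genes were higher and none lower, with a median of 0.36. Ctss, a cathepsin of antigen-presenting cells, had 4749 units at 28 months, against 2350.3 units at 4 months, 2.02-fold higher. Cybb, the catalytic subunit of the phagocyte oxidase, had 976 units at 28 months, against 516 units at 4 months, with 3 probe sets from 0.85 to 0.92, and its subunit Ncf4 had 421 units at 28 months, against 189 units at 4 months. Only Cybb, of 15 list genes with 2 or more measured probe sets, had all of them 1.5-fold higher. Of the list 25 ratios were above 0. Lgmn, the protease legumain, had 1749 units at 28 months, against 995 units at 4 months, 1.76-fold higher. Npc2, which binds cholesterol in lysosomes, had 6013 units at 28 months and 4451 units at 4 months, and Ctsd, cathepsin D, had 3854 units at 28 months and 3212 units at 4 months, both within 1.5-fold. Lamp1, a lysosomal membrane protein, had 16704 units at 28 months and 15818 units at 4 months, and Lipa, lysosomal acid lipase, had 6089 units at 28 months and 6146 units at 4 months. Of the 9 genes past 1.5-fold, Cybb, Cyba, Ncf1 and Ncf4 encode parts of the phagocyte oxidase.

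Chemokines made by liver and immune cells were 7 of 23 higher and none lower past 1.5-fold, with 12 more under the floor at both ages, Ccl2 among them. Ccl6, a macrophage chemokine, had 1876 units at 28 months, against 621 units at 4 months, 3.02-fold higher, with both probe sets past 2-fold. Cxcl1, a neutrophil attractant that hepatocytes make, had 4339 units at 28 months, against 1861 units at 4 months, 2.33-fold higher, with 3 probe sets from 0.64 to 1.45. Cxcl14 had 708 units at 28 months and 48.8 units, under the floor, at 4 months. Its second probe set gave 0.57, also a bound, from 164 units at 28 months and 90.0 units at 4 months. The interferon-gamma chemokines were on the other side, with Cxcl9 at 785 and 999 units and Cxcl10 at 159.5 and 225 units at 28 and 4 months, both within 1.5-fold. Of 19 measured cytokine and receptor genes 3 were higher and none lower. Il1b had 262 units at 28 months and 186 units at 4 months. Tnf had 130.1 units at 28 months and 159 units at 4 months, and Il6 was under the floor at both ages. The signals of these cytokines were thus low at both ages and within 1.5-fold.

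Interferon-stimulated genes were 19 of 35 past 1.5-fold higher and none lower, with a median of 0.69. Usp18, a protease that restrains interferon signalling, had 1059 units at 28 months, against 176 units at 4 months, 6.01-fold higher. Ifit1, which binds viral RNA caps, had 725 units at 28 months, against 148 units at 4 months, 4.9-fold higher, and Irf7, the factor that amplifies type I interferon, had 579 units at 28 months, against 206 units at 4 months, 2.8-fold higher. Oas1a, a sensor of double-stranded RNA, had 1018 units at 28 months, against 380.4 units at 4 months, 2.68-fold higher. Usp18, Ifit1, Irf7 and Oas1a are best known from the type I interferon response, but the part of either type of interferon in the list was not tested. Rsad2, viperin, had 1057 units at 28 months, against 564 units at 4 months, with 3 probe sets from 0.54 to 1.20. Xaf1 had 518 units at 28 months, against 251 units at 4 months, with both probe sets past 2-fold. Interferon-gamma-induced GTPases were uneven. Gbp3, a guanylate-binding protein, had 482 units at 28 months, against 209 units at 4 months, 2.31-fold higher, whereas Iigp1 had 15622 units at 28 months and 18270.2 units at 4 months and Igtp had 3784 units at 28 months and 3758 units at 4 months. Irf1, the main factor downstream of interferon-gamma, had 1295 units at 28 months and 1321 units at 4 months. Iigp1, Igtp and Irf1 were named after their values were seen. MHC class I genes gave 2 of 14 higher, with 13 ratios above 0. H2-K1, a classical class I chain, had 13358 units at 28 months, against 8887 units at 4 months, 1.5-fold higher, though probes of class I genes may share RNA of related genes. MHC class II genes gave 2 of 10, Ctss and Cd83, while the class II chain H2-Aa had 2224 units at 28 months and 2314 units at 4 months and Cd74, the invariant chain, had 642 units at 28 months and 552 units at 4 months.

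The promoter of Ifit1 is shown because it is the interferon-stimulated gene with the highest ratio that has a window in the RefSeq promoter table used here (GRCm38.p6). The window holds the 250 bases before the annotated start, chr19:34640639-34640888 on the plus strand. Capitals mark the letters TTTC, any 2 bases and TTTC of an interferon response element on either strand, which occur 2 times without overlap, nearest at position -85 from the start.
Ifit1: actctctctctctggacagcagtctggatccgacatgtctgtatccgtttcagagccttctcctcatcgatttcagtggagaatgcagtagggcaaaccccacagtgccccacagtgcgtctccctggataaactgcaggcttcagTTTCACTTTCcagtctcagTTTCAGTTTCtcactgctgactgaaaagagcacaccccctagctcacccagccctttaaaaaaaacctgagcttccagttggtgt
The same letters occurred in 7 of the 14 higher interferon-stimulated genes with a window, in 7 of the 13 other measured genes of the list with one, and in 3.46% of 27025 genes. The motif was therefore as frequent in list members within 1.5-fold as in those past it. A match of letters is a description and not a site.

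**Figure D3:**
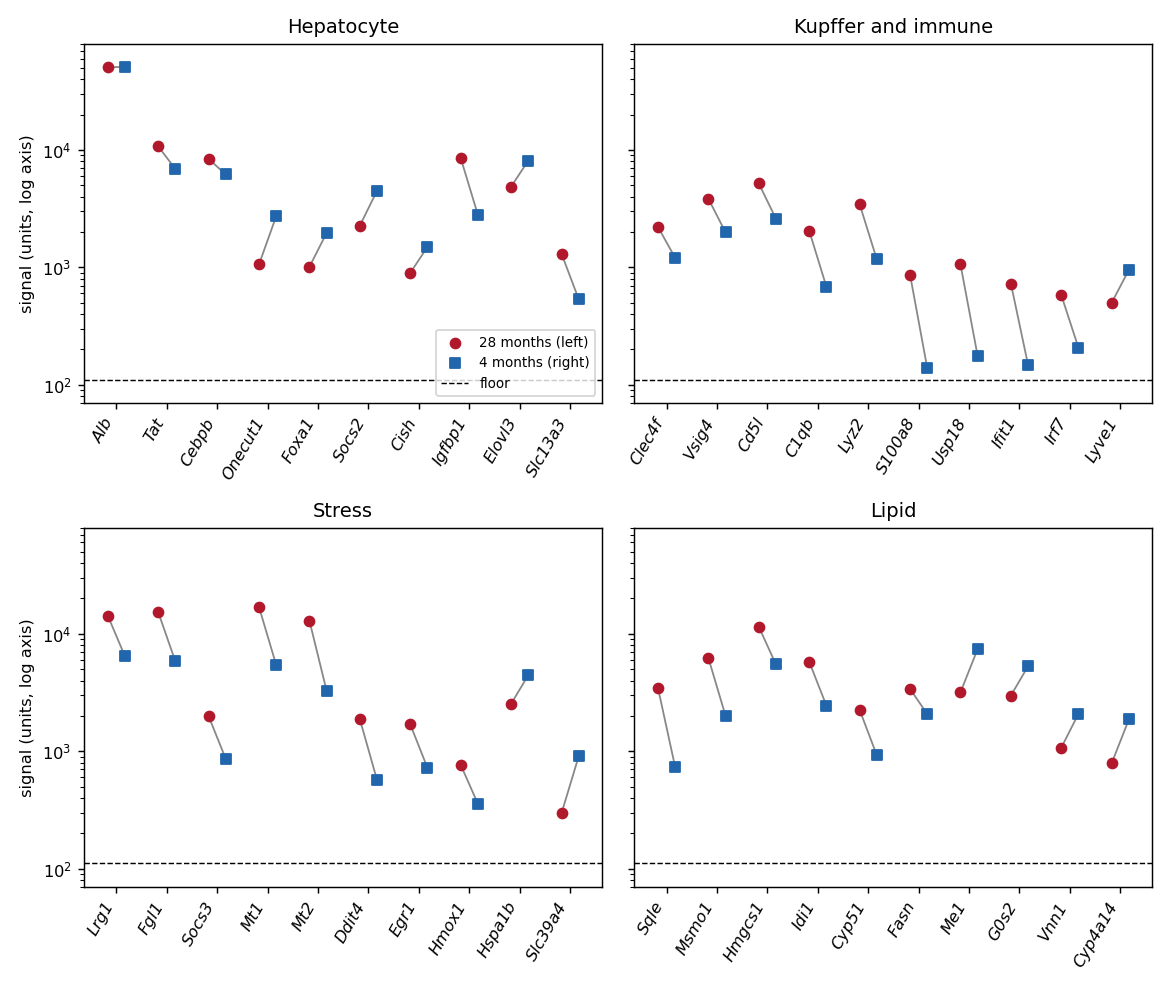
Signals of 40 genes in the liver arrays (units, log axis) are drawn in 4 panels, with 28 months as red circles left of 4 months as blue squares and a dashed line at the floor. Alb is level, Onecut1, Foxa1, Socs2, Me1 and Cyp4a14 are lower at 28 months, and Usp18, Mt2, Sqle and S100a8 are higher.

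Acute phase genes were 17 of 32 past 1.5-fold higher and none lower, with a median of 0.70 and a summed signal of 501286 units at 28 months against 344318 units at 4 months. The highest ratios belonged to Lcn2, lipocalin-2, which binds bacterial iron carriers, with 9366 units at 28 months, against 188 units at 4 months, and to Orm2, an orosomucoid, with 3747 units at 28 months, against 201 units at 4 months. Serum amyloid A genes were graded. Saa1, a circulating form, had 32579 units at 28 months, against 3372 units at 4 months. Saa3, which macrophages also make, had 1543 units at 28 months, against 900.4 units at 4 months, 1.71-fold higher, and Saa4, the constitutive member, had 14117 units at 28 months and 12172 units at 4 months. The orosomucoids were graded too, with Orm1 at 20942 units at 28 months, against 9379.7 units at 4 months, 2.23-fold higher, although probes of these close copies may share RNA. Lrg1, a leucine-rich glycoprotein, had 14277 units at 28 months, against 6441 units at 4 months, 2.22-fold higher. Lbp, which hands lipopolysaccharide to Cd14, had 4682 units at 28 months, against 2619 units at 4 months, with both probe sets past 1.5-fold. Apcs, serum amyloid P, had 23743 units at 28 months, against 15152 units at 4 months, 1.57-fold higher. Several classic members were within 1.5-fold. Hp, haptoglobin, had 38779.7 units at 28 months and 30339 units at 4 months. Fgb, a fibrinogen chain, had 34705 units at 28 months and 33369 units at 4 months, and Crp had 14512 units at 28 months and 14821 units at 4 months. The response was therefore uneven, and it did not include Hamp, which had a ratio of -0.21. Plasma proteins known to decline in the acute phase were level, with none of 11 past 1.5-fold and a median of 0.02. Serpina6, the corticosteroid carrier, had 2810.3 units at 28 months and 3388 units at 4 months.

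The promoters of Lcn2 and Orm2 are shown since these 2 genes had the highest ratios of the list. Each window holds the 250 bases before the start annotated by RefSeq (GRCm38.p6), chr2:32387740-32387989 on the minus strand for Lcn2 and chr4:63362199-63362448 on the plus strand for Orm2. Capitals mark the letters GGG, any 5 bases and CC of an NF-kB site, TTGCNNAA of a C/EBP site or TTCNNNGAA of a STAT site on either strand, and in these windows no match overlaps another. Lcn2 holds 1 NF-kB match at position -102 and 1 C/EBP match at position -216, and Orm2 holds 1 C/EBP match at position -120.
Lcn2: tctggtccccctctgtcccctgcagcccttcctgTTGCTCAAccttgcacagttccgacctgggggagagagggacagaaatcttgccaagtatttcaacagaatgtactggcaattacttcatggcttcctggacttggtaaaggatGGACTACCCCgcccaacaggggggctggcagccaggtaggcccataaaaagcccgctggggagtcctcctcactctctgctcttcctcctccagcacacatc
Orm2: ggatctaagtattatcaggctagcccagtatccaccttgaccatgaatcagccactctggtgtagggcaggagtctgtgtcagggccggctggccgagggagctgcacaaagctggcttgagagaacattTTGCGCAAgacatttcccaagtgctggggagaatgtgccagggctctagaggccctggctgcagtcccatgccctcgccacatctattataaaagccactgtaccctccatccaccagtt
Among list members with a window, the C/EBP letters occurred in 9 of 14 higher genes and in 6 of 13 others, against 10.8% of 27025 genes. The NF-kB letters occurred in 8 of 14 and 7 of 13, against 48.7% of all genes, and the STAT letters in 2 of 14 and 4 of 13, against 8.13%. The C/EBP share was thus higher and the STAT share lower among the higher genes than among the others, over few genes.

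The IL-6 and STAT3 pathway gave 5 of 19 higher and none lower. Socs3, the inhibitor that STAT3 induces, had 1988 units at 28 months, against 859 units at 4 months, 2.31-fold higher, with 3 probe sets from 0.83 to 1.61. Fgl1, a fibrinogen-like protein secreted by hepatocytes, had 15317 units at 28 months, against 5830.2 units at 4 months, 2.63-fold higher. Stat3 had 2586 units at 28 months, against 1492 units at 4 months, but its 3 probe sets ran from 0.05 to 0.79. The receptor chains were closer to equal, with Il6ra at 1926 and 1421 units and Il6st at 2703 and 2746 units at 28 and 4 months. NF-kB targets gave 5 of 19 higher and none lower. Tnfaip3, the A20 inhibitor, had 483 units at 28 months, against 299 units at 4 months, 1.62-fold higher, while Nfkbia, the inhibitor I-kappa-B alpha, had 9384 units at 28 months and 8789 units at 4 months. Vcam1, an endothelial adhesion molecule, had 1175 units at 28 months, against 543 units at 4 months, and its 3 probe sets differed in sign, from -0.06 to 1.11.

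Immediate early genes, which respond within minutes to growth factors and stress, were 8 of 24 higher and none lower, with a median of 0.48. Egr1, a zinc-finger factor, had 1688 units at 28 months, against 721 units at 4 months, 2.34-fold higher. Klf6 had 628 units at 28 months, against 302 units at 4 months, 2.08-fold higher, with 4 probe sets from 0.47 to 1.05. Fos had 585 units at 28 months, against 339 units at 4 months, 1.73-fold higher, and Jun had 1226 units at 28 months, against 802 units at 4 months, 1.53-fold higher. Dusp1 had 2802 units at 28 months and 2673 units at 4 months and Myc had 438 units at 28 months and 408 units at 4 months, so the class was not uniform.

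Metallothioneins, zinc-binding proteins that metals and the acute phase induce, were higher. Mt1 had 16859 units at 28 months, against 5436 units at 4 months, 3.1-fold higher, and its second probe set gave 0.97. Mt2 had 12889 units at 28 months, against 3274 units at 4 months, 3.94-fold higher. The zinc importer Slc39a4 was on the other side at 297 units at 28 months, against 906 units at 4 months, 3.06-fold lower, as was the manganese exporter Slc30a10 at 652 units at 28 months, against 1012 units at 4 months, 1.55-fold lower. Slc39a14, the importer that IL-6 induces, had 3903 units at 28 months and 3521 units at 4 months. Over the 10 genes 2 were higher and 2 lower. The Mt2 window is shown for its matches to the metal response letters TGCNCNC, in capitals on either strand, which occur 5 times in the 250 bases before the annotated start, nearest at position -50 (GRCm38.p6, RefSeq, chr8:94172368-94172617, plus strand).
Mt2: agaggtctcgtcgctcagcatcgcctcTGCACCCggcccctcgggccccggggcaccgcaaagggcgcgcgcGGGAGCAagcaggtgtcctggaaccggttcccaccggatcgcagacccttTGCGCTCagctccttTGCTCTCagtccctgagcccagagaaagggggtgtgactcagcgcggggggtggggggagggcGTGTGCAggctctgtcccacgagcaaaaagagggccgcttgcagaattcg
The window of Mt1, the other higher gene, held 1 match, at position -23. These short letters occurred in 47.2% of 27025 genes, in both higher genes of the list and in 4 of its 6 others with a window.

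Protein-folding stress genes lay on the lower side. Of 28 genes of the unfolded protein response of the endoplasmic reticulum none was past 1.5-fold, and 23 ratios were below 0, with a median of -0.12 against -0.02 over all genes. Ratios of 45.7% of all measured genes were above 0, so most genes at large were not above it either. Hspa5, the chaperone BiP, had 22712 units at 28 months and 23008 units at 4 months. Creld2, a secretory pathway isomerase, had 3528 units at 28 months and 5017 units at 4 months, and Ern1, the sensor IRE1, had 2508 units at 28 months and 3632 units at 4 months, with 3 probe sets from -0.53 to -0.30. Differences in this list were thus small, and most shared a side. Cytosolic heat shock genes gave 2 of 23 lower and 1 higher, with a median of -0.17. Hspa1a, an inducible Hsp70, had 132 units at 28 months, against 464 units at 4 months, 3.52-fold lower. The near-identical Hspa1b had 2536 units at 28 months, against 4442 units at 4 months, 1.75-fold lower, and its 3 probe sets lay between -0.81 and -0.76. Hsph1, an Hsp110 chaperone, had 3169 units at 28 months and 4543 units at 4 months, and Hspb1, Hsp25, had 1878 units at 28 months and 2648 units at 4 months, both lower but within 1.5-fold. Hspa2, an Hsp70 best known from the testis, was the 1 higher member at 341 units at 28 months, against 136 units at 4 months, 2.5-fold higher.

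In the integrated stress response 2 of 22 were higher and 1 lower. Ddit4, an inhibitor of mTORC1 that glucocorticoids and low oxygen induce, had 1868 units at 28 months, against 568 units at 4 months, 3.29-fold higher. Atf4, the central factor, had 2353 units at 28 months and 2469.9 units at 4 months, and Ddit3, the factor CHOP, had 411 units at 28 months and 376 units at 4 months. Asns, asparagine synthetase, had 181 units at 28 months, against 118 units at 4 months. The list had no common direction, with a median of 0.01. Targets of the oxidative stress factor Nrf2 gave 5 of 28 higher and 1 lower. Nqo1, a quinone reductase, had 299.9 units at 28 months, against 168 units at 4 months, 1.79-fold higher, whereas Gclc, which limits glutathione synthesis, had 6971 units at 28 months and 7345 units at 4 months. None of 18 antioxidant enzymes was past 1.5-fold, Sod1 having 17553 units at 28 months and 19079.7 units at 4 months and Cat, catalase, 17859.9 and 18514 units at 28 and 4 months.

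Genes of p53 and cell cycle arrest gave 4 of 25 higher and none lower. Cdkn1a, the cell cycle inhibitor p21, had 1358 units at 28 months, against 693 units at 4 months, 1.96-fold higher, with probe sets at 0.83 and 0.97. Ccnd1, cyclin D1, had 1995 units at 28 months, against 893 units at 4 months, 2.23-fold higher, with 3 probe sets from 0.89 to 1.16. It was the only gene of the list past 2-fold, and it encodes a driver of the cell cycle and not an inhibitor. Mdm2, a p53 target that ends its response, had 853 units at 28 months and 832 units at 4 months, and Cdkn2a, the source of p16 and p19, was under the floor at both ages. Of 13 measured senescence-linked secreted genes 5 were higher and none lower, but 8 more were under the floor, among them Mmp3, Il6 and Timp1. Those past 1.5-fold were Cxcl1, Ccl5, Ccl8, Icam1 and Igfbp3, of which the first 4 are also immune genes. Proliferation genes gave 3 of 16 higher, all of the replication helicase. Mcm6 had 481 units at 28 months, against 233 units at 4 months, 2.06-fold higher, with probe sets at 1.04 and 1.54, and Mcm3 and Mcm5 were the other two. Mki67 and Top2a, which mark dividing cells, were at 112 and 116 units at 28 months and under the floor at 4 months, and 13 of 29 were under it at both ages.

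Clock genes gave 3 of 19 higher and none lower. Per1, Per2 and Per3, the period repressors, had 776, 518 and 648 units at 28 months, against 511, 322 and 418 units at 4 months. Arntl, the activator BMAL1, had 318 units at 28 months and 437 units at 4 months, within 1.5-fold. The probe sets of Per2 ran from -0.01 to 0.69 and those of Per3 from -0.16 to 0.63, so the probe sets of neither gene agreed. No label used here gives the hour at which tissue was taken. Of 20 genes of NAD metabolism 1 was past 1.5-fold, Nnmt, which methylates nicotinamide. Nampt, which salvages nicotinamide, had 4049 units at 28 months and 3785 units at 4 months, and Sirt1 had 772 units at 28 months and 776 units at 4 months.

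Mitochondrial respiration shared a small shift. None of 31 oxidative phosphorylation genes was past 1.5-fold, 29 ratios were below 0, and the median was -0.16 against -0.02 over all genes. Over all measured genes 45.7% of ratios were above 0. Sdhb, an iron-sulphur subunit of complex II, had 9679.8 units at 28 months and 11818 units at 4 months, and Ndufs1, a subunit of complex I, had 3589 units at 28 months and 4468 units at 4 months. The exceptions above 0 were Sdhc and Ppargc1a, the coactivator of mitochondrial genes, which had 774 units at 28 months and 599 units at 4 months. For scale, the median SD between probe sets of one gene was 0.12 on the log2 scale, and under the alternatives of processing the list's median lay between -0.17 and -0.11.

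In the lipid program cholesterol synthesis stood apart from the other lists. Of its 20 genes 13 were past 1.5-fold higher and none lower, with a median of 0.81 and 6 past 2-fold. Hmgcs1, which makes the precursor of mevalonate, had 11489 units at 28 months, against 5477 units at 4 months, 2.1-fold higher, and all 4 probe sets lay between 0.82 and 1.07. Mvd and Idi1, which make and isomerise isopentenyl diphosphate, had 401 and 5773 units at 28 months, against 170.4 and 2449 units at 4 months, and both probe sets of each were past 2-fold. Fdft1, squalene synthase, had 5353 units at 28 months, against 2805 units at 4 months, 1.91-fold higher. Early steps from mevalonate to squalene were thus higher on several probe sets. Sqle, the epoxidase that opens the sterol branch, had 3466 units at 28 months, against 736 units at 4 months, 4.71-fold higher. Msmo1, a sterol methyl oxidase, had 6227 units at 28 months, against 2006 units at 4 months, 3.1-fold higher. Cyp51, the lanosterol demethylase, had 2244 units at 28 months, against 925 units at 4 months, 2.43-fold higher, with 3 probe sets at 0.70 or above. Late steps were mixed: Dhcr7, the last reductase, had 2104 units at 28 months, against 1131 units at 4 months, 1.86-fold higher, but Sc5d had 4985 units at 28 months and 5770.5 units at 4 months and Ebp had 8230.1 units at 28 months and 8891 units at 4 months.

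Regulators of that pathway were read beside it. Srebf2, the gene of SREBP-2, had 509 units at 28 months and 480.4 units at 4 months, though its second probe set gave 0.54. Insig1, which holds SREBP in the endoplasmic reticulum and is its target, had 6520.2 units at 28 months, against 4128 units at 4 months, 1.58-fold higher. Uptake and export genes were mostly within 1.5-fold, with 1 of 18 higher and none lower. Abca1, a cholesterol exporter, had 8910.4 units at 28 months and 9936 units at 4 months, and Scarb1, the HDL receptor, had 3984 units at 28 months and 4009.8 units at 4 months. Of 10 higher genes of the pathway with a promoter window, 1 held the sterol response letters TCACCCCA in its 250 bases, as did 1 of 6 others and 1.54% of 27025 genes.

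Fatty acid synthesis was split. Of 30 genes 3 were higher and 2 lower. Fasn, fatty acid synthase, had 3389 units at 28 months, against 2074 units at 4 months, 1.63-fold higher, and Thrsp, a partner of lipogenesis, had 13966 units at 28 months, against 9192 units at 4 months, 1.52-fold higher, with 3 probe sets from 0.29 to 0.60. Me1, the malic enzyme that supplies NADPH for it, had 3179.9 units at 28 months, against 7408 units at 4 months, 2.33-fold lower, with both probe sets past 1.5-fold (-1.22 and -0.78). Srebf1, the gene of SREBP-1, had 4008 units at 28 months and 3083 units at 4 months, and Scd1, the main desaturase, had 37974 units at 28 months and 41618 units at 4 months. Mlxipl, the glucose-sensing factor ChREBP, had 2820.1 units at 28 months and 3795 units at 4 months, lower within 1.5-fold. The synthase and its NADPH source thus lay on opposite sides.

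Triglyceride and droplet genes gave few differences. In triglyceride synthesis and breakdown 1 of 25 was lower and none higher. This was G0s2, an inhibitor of the lipase ATGL and a PPAR target, with 2979 units at 28 months, against 5295 units at 4 months, 1.78-fold lower. Dgat2, which makes triglyceride, had 8966 units at 28 months and 9866 units at 4 months, and Plin2, the main droplet coat protein, had 12456 units at 28 months and 13207 units at 4 months. Acsl3, an acyl-CoA synthetase of droplets, had 897 units at 28 months, against 507 units at 4 months, 1.77-fold higher, with probe sets at 0.79 and 0.83. Of 21 uptake genes 3 were higher and 2 lower. Cd36, a fatty acid and scavenger receptor that macrophages also express, had 1609.6 units at 28 months, against 934 units at 4 months, 1.72-fold higher, with 3 probe sets between 0.74 and 0.83. Vldlr, the VLDL receptor, had 275 units at 28 months, against 555 units at 4 months, 2.02-fold lower, with 5 probe sets from -1.02 to -0.20. Both ends of that range are bounds, since those probe sets had 107 and 58.7 units at 28 months, under the floor. At 4 months they had 225 and 127 units. Fabp1, the abundant liver fatty acid-binding protein, had 31273 units at 28 months and 38600.0 units at 4 months.

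Fatty acid oxidation lay on the lower side. None of 26 mitochondrial oxidation genes was past 1.5-fold, and 20 ratios were below 0, with a median of -0.15. Etfdh, which passes electrons from oxidation to the respiratory chain, had 7339.8 units at 28 months and 9497 units at 4 months, and Cpt1a, which admits fatty acids to mitochondria, had 6237 units at 28 months and 5992 units at 4 months. In peroxisomes 18 of 23 ratios were below 0, with 1 past 1.5-fold lower and 1 higher. Both counts of signs stand beside 45.7% of ratios above 0 over all measured genes. Acot3, a peroxisomal thioesterase, had 421 units at 28 months, against 743 units at 4 months, 1.76-fold lower. Omega oxidation gave 2 of 10 lower, both of the Cyp4a family. Cyp4a14 had 791 units at 28 months, against 1867 units at 4 months, 2.36-fold lower, and Cyp4a31, a close relative whose probes may share its RNA, had 133 units at 28 months, against 338 units at 4 months, 2.54-fold lower. Cyp4a12a had 6868 units at 28 months and 7565 units at 4 months.

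PPAR targets were mixed, with 3 of 24 higher and 2 lower. Vnn1, a pantetheinase and PPAR-alpha target, had 1072 units at 28 months, against 2082 units at 4 months, 1.94-fold lower, with probe sets at -0.96 and -0.91. Pdk4, the kinase that shuts pyruvate dehydrogenase in fasting, had 483 units at 28 months, against 227 units at 4 months, 2.12-fold higher. Ppara itself had 3811 units at 28 months and 3664 units at 4 months. Fgf21, the fasting hormone, had 184 units at 28 months and 271 units at 4 months, lower within 1.5-fold. Targets of one factor thus lay on both sides while its own gene was level. Of 7 ketone body genes 1 was higher, Oxct1, the ketone-using transferase, with 526 units at 28 months, against 346 units at 4 months and 3 probe sets from 0.20 to 1.21.

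Apolipoproteins and membrane lipids were level. None of 25 lipoprotein genes and none of 24 phospholipid genes was past 1.5-fold. Apob, the scaffold of VLDL, had 22732 units at 28 months and 26581 units at 4 months. Apoe, a ligand for remnant uptake, had 33374 units at 28 months and 35557 units at 4 months. Of 23 sphingolipid genes 1 was higher, Smpd3, a neutral sphingomyelinase, with 186 units at 28 months, against 119 units at 4 months and 3 probe sets from -0.03 to 0.79. Eicosanoid genes gave 2 of 18 higher. Alox5ap, the activating protein of 5-lipoxygenase in myeloid cells, had 729.6 units at 28 months, against 406 units at 4 months, 1.8-fold higher, and Ptger4, a prostaglandin E receptor, had 199 units at 28 months, against 115 units at 4 months. Alox5 itself had 216 units at 28 months and 243 units at 4 months, and Ptgs2, the inducible cyclooxygenase, was under the floor at both ages.

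Agreement between probe sets could be read for 60 of the 176 genes past 2-fold, since 116 had only 1 measured probe set. In 36 of the 60 (60%) every measured probe set was 1.5-fold or more the same way, 32 higher and 4 lower. Over the 5078 genes with 2 or more measured probe sets, 67 (1.32%) were all 1.5-fold higher and 13 (0.256%) all lower. By list, all were 1.5-fold higher in 1 of 6 such Kupffer cell markers and 0 of 5 Fc and complement receptor genes. The same held for 1 of 15 lysosome and phagosome, 2 of 13 interferon-stimulated and 2 of 2 recruited macrophage genes. It held for 3 of 7 acute phase and 5 of 11 cholesterol synthesis genes. The brightest and second probe sets differed by a median of 0.13 on the log2 scale over all 5078 genes and by 0.48 over the genes past 2-fold. Probe sets of genes past 2-fold thus differed more than those of genes at large, the brightest of them being the one that placed a gene past 2-fold. These counts and differences include probe sets with 1 side under the floor, whose ratios are bounds. The part of such bounds in them was not tested. The 4 lower genes were Onecut1, Me1, Serpina4-ps1 and Slc25a30. Slc25a30, a mitochondrial carrier, had 1704 units at 28 months, against 4466 units at 4 months, 2.62-fold lower, with 4 probe sets from -1.39 to -0.65. Serpina4-ps1, a transcribed serpin pseudogene, had 3829 units at 28 months, against 7763 units at 4 months, 2.03-fold lower, with 3 probe sets from -1.06 to -1.02. On the higher side, genes of no list with agreeing probe sets included Ifi27, an interferon-induced gene, at 6291 units at 28 months, against 2041 units at 4 months, and Nat8f4, an acetyltransferase family member, at 595 units at 28 months, against 240.4 units at 4 months. Rec114, known from meiosis, had 916 units at 28 months, against 343 units at 4 months, with probe sets at 1.42 and 1.90.

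In 6 of the 60 genes the probe sets differed in sign: Ntrk2, Cplane1, Scara5, Gas6, Vcam1 and Cmpk2. Ntrk2, the BDNF receptor, had 1185 units at 28 months and 477 units at 4 months on its brightest probe set, while its 3 probe sets ran from -0.22 to 2.24. Gas6, a ligand of the receptors Axl and Mertk, had 1664 units at 28 months and 721 units at 4 months, with its second probe set at -0.10. The values below 0 were small for Vcam1 (-0.06), Cplane1 (-0.04 and -0.02) and Cmpk2 (-0.04, a bound), and larger for Scara5 (-0.40). For these genes the probe sets do not give 1 direction for the gene as a whole.

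**Figure D4:**
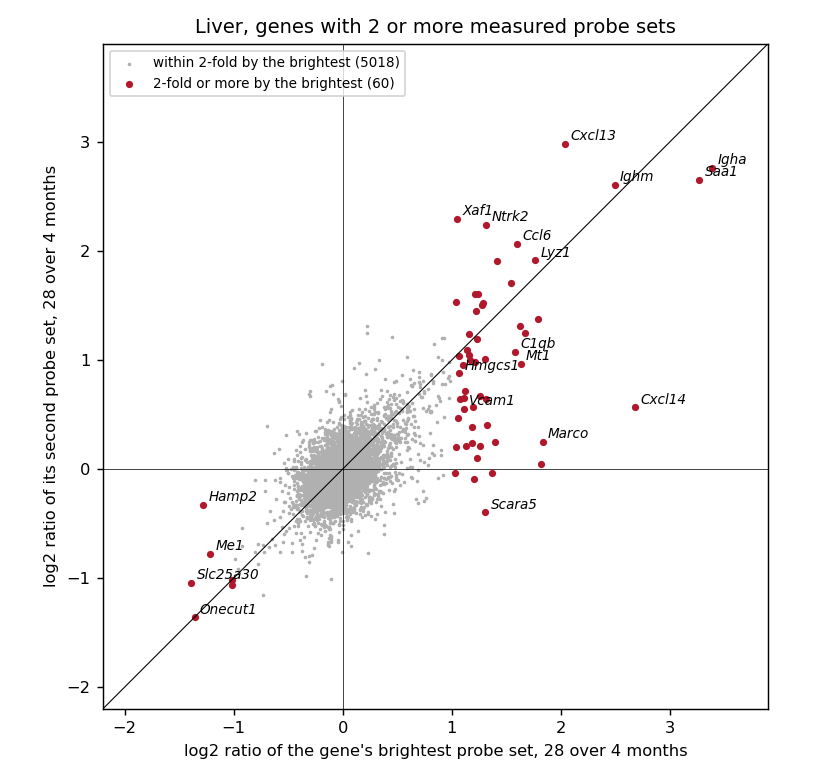
Each point is 1 of 5078 genes with 2 or more measured probe sets in liver, with the log2 ratio of 28 over 4 months of its brightest probe set on the x axis and of its second probe set on the y axis, the line marking equal ratios. Of the 60 genes past 2-fold by the brightest (red), Ighm, Lyz1 and Onecut1 lie near the line, and Marco, Cxcl14 and Scara5 lie far from it. The second probe sets of Marco and Cxcl14 were under the floor at 4 months, so their ratios are bounds.

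The liver genes were then read in the other tissues of the study, where each tissue and age is again a single pool, and the labels title the 28-month intestinal arrays apart from the rest. Of the 156 genes 2-fold higher in liver, 33 of 128 measured in spleen were 1.5-fold or more higher there, against 3.16% of all genes in spleen. The counts were 16 of 125 in jejunum (background 1.89%), 19 of 128 in ileum (4.93%) and 28 of 129 in distal colon (2.53%). Of the 156, 88 were counted as higher in none of the other 4 tissues and 1 in all 4. A gene not measured in a tissue counted as not higher there, and the same count over all genes was not made. The 88 are therefore not a count of genes particular to liver. Kupffer cell markers had a median of 0.75 in liver, 0.07 in spleen, 0.12 in jejunum, 0.01 in ileum and -0.10 in distal colon. Cholesterol synthesis had medians of 0.81 in liver, 0.73 in ileum, 0.40 in distal colon, 0.24 in jejunum and 0.11 in spleen. Of its 20 genes 12 were 1.5-fold higher in ileum, 8 in distal colon, 3 in jejunum and none in spleen. Interferon-stimulated genes had 0.69 in liver, 0.34 in spleen and 0.23 in distal colon, and -0.18 in jejunum and -0.30 in ileum. Neutrophil markers had 0.36 in liver and 1.39 in spleen, where 12 of 15 were higher. The lists thus differed in which other tissues shared their side, and the differences between tissues were not tested.

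**Figure D5:**
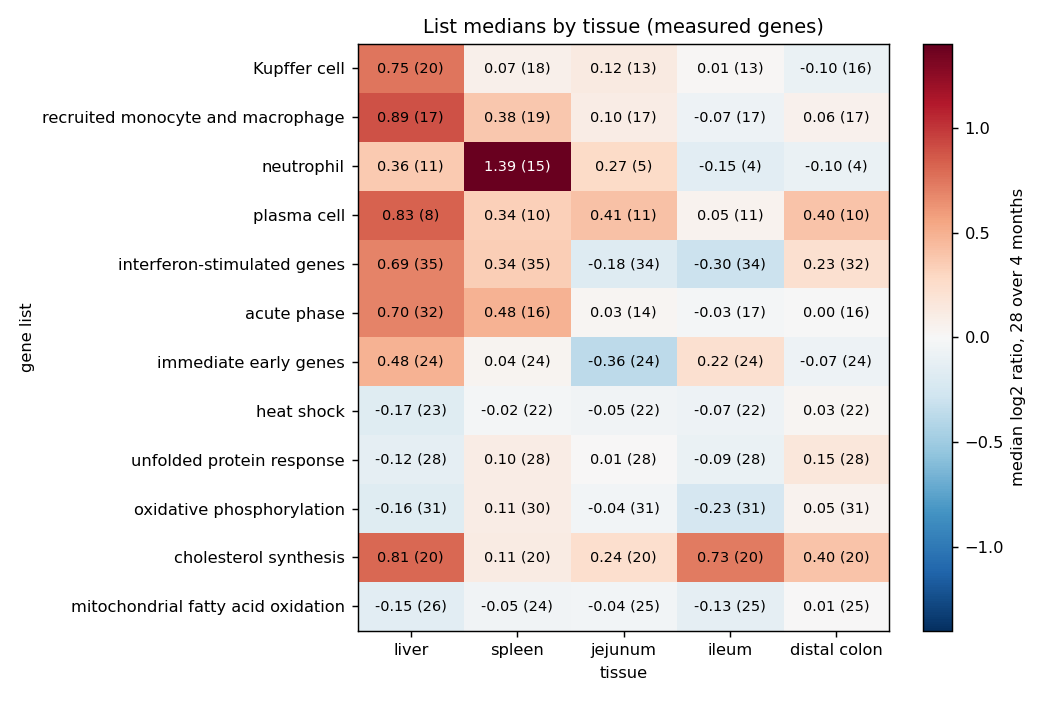
The median log2 ratio of 28 over 4 months is given for 12 gene lists (down) in 5 tissues (across), with the number of measured genes in parentheses and colour from blue (lower at 28 months) to red (higher). Liver has medians from 0.36 to 0.89 in the top 7 lists, and the ileum shares the high median of cholesterol synthesis at 0.73 but not that of interferon-stimulated genes, at -0.30.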

How the data were processed

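RNA was pooled per tissue and age, and each pool was read on 1 array. The authors deposited log2 signals per probe set, and the submitters' processing notes name MAS5 and affy. Not given in the sources used here is how the arrays were normalized. The deposited log2 values were unlogged and each array was scaled to a trimmed mean of 500 units (2% trimmed at each end). Of 45101 probe sets, 34958 name 1 gene in the platform annotation, 932 name several and 9211 are not listed there; symbols were updated by gene ID to RefSeq (GRCm38.p6). A gene took the probe set with the highest mean over both liver arrays, and was measured if above the floor, the median of all signals, at either age. Ratios of 1.5, 2 and 3-fold were counted. Probe sets agreed when at least 2 were measured and all were 1.5-fold or more the same way. With 1 array per group no test was run, and the small number of arrays limits precision. Known ratios in simulated data were recovered by the same calculation. That run checked the arithmetic only. It is no check of ratios bounded by the floor, or of genes whose probe sets differ.

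Members and gene lists were chosen with earlier results of these data known. The rule for named genes took the 15 largest ratios per direction among genes with agreeing probe sets and the 8 largest among genes with 1 probe set (brighter signal of at least 2 floors), the first 3 genes of each list with up to 8 further members of largest absolute ratio, every cell type marker, and up to 6 genes with probe sets of opposite sign. Alox5, Apcs, Apoe, C9, Cfi, Crp, Cxcl9, Cyp2d9, Cyp7b1, Dlk1, Dusp1, Ebp, Igf2, Igtp, Iigp1, Irf1, Lbp, Lipa, Lrg1, Mest, Mmp3, Myc, Rsad2, Saa3, Saa4, Sc5d, Sdhc, Srebf2, Timp1, Tlr4 and Xaf1 were added after their values were seen. Promoter motifs were searched as plain letters on both strands in the 250 bases before each annotated start. Alternatives changed the floor, the scaling, the choice of probe sets and the fold. Python 3.11.15 was used with numpy 2.4.6, pandas 2.3.3, statsmodels 0.14.6 (lowess) and matplotlib 3.10.9.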

Additional observations from a re-analysis of the deposited data

Results flagged for a closer look

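In 11 cases a gene 2-fold or more higher at 28 months in liver was 2-fold or more lower at 28 months in another tissue of the study. With 1 pooled array per tissue and age the difference between tissues was not tested in any of them. The log2 ratios of 4 genes are only bounds set by the floor, since their signal was under it at 4 months in liver and at 28 months in the other tissue. Of these, Reg3b, an antibacterial lectin, had 1.33 in liver, where its other probe set gave a bound of 0.40, and -6.92 in distal colon. Afp had 1.23 in liver, where its 3 measured probe sets gave bounds from 0.10 to 1.23, and -3.65 in ileum. Dmbt1, a mucosal scavenger protein, had 1.79 in liver and -2.51 in spleen, and Spink1, a trypsin inhibitor, had 1.20 in liver and -1.42 in spleen. The other 7 genes were above the floor at both ages in both tissues. Mt1 had 1.63 in liver and -1.03 in distal colon, Mt2 had 1.98 in liver and -1.18 in distal colon, and Socs3 had 1.21 in liver and -1.38 in distal colon. Saa1 had 3.27 in liver and -1.16 in ileum, and Saa2 had 4.13 in liver and -1.24 in ileum. The interferon-stimulated genes Ifit1 and Ifi27l2b had 2.29 and 1.39 in liver, and -1.06 and -1.39 in ileum.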

How the results depend on the processing

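No paired analysis was possible because each age is 1 pooled array and the ratios come from no test. Counts of genes past 2-fold higher and lower were within 1.5 times the reported counts under a floor at the 25th percentile (195 and 24), with 16 units added in place of a floor (167 and 16), under equal medians, quantile or lowess normalization or no further scaling (157 to 172 and 15 to 18), with the median over probe sets (134 and 18), and without the _s_at and _x_at probe sets (149 and 19). A floor at the 75th percentile tests fewer genes and gave 57 higher and 8 lower. Under that floor 15 genes had agreeing probe sets, and 17 genes of the hepatocyte, 35 of the Kupffer, 32 of the stress and 17 of the lipid program were 1.5-fold higher. At 1.5-fold 479 genes were higher and 98 lower, and at 3-fold 40 and 5. Keeping only genes with agreeing probe sets left 32 and 4. Without the _s_at and _x_at probe sets 17 genes agreed and 0 genes of the Kupffer program were lower. Per3 turned to -0.0233 with the median over probe sets, and Hbb-b2 and Laptm5 to -0.0816 and -0.0676 without those probe sets, each through its other probe sets. Of 71 list medians 54 kept their sign in every alternative of floor, scaling and probe set, and the other 17 were at most 0.15 in size. No scaling moved the median of all genes by over 0.1.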

Other observations

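Genes outside the lists held further differences in both directions. Among genes with agreeing probe sets on the lower side, Nrep, a neuronal regeneration protein, had 1420.1 units at 28 months, against 2439 units at 4 months, 1.72-fold lower. Arid5b, a DNA-binding regulator of adipose and metabolic genes, had 2464 units at 28 months, against 3936 units at 4 months, 1.6-fold lower, with 3 probe sets from -0.71 to -0.68. Fam126b had 1841 units at 28 months, against 2893 units at 4 months, 1.57-fold lower, with 4 probe sets from -0.80 to -0.64. Col27a1, a fibrillar collagen, had 1277 units at 28 months, against 1961 units at 4 months, 1.54-fold lower. On 1 probe set, Rps4l, a ribosomal protein S4 paralogue, had 235 units at 28 months, against 929 units at 4 months, 3.96-fold lower, and its probes may share RNA of related copies.

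Several genes were singled out after their values were seen, each on 1 probe set. Noct, nocturnin, a rhythmic phosphatase of the liver, had 3082 units at 28 months, against 811 units at 4 months, 3.8-fold higher. The atypical E2F repressors, which act in hepatocyte polyploidy, lay on opposite sides. E2f8 had 394 units at 28 months, against 987 units at 4 months, 2.5-fold lower, while E2f7 had 304 units at 28 months and 107 units, under the floor, at 4 months, at least 2.74-fold higher. Ptprc, the pan-leukocyte marker CD45, had 1793 units at 28 months, against 797 units at 4 months, 2.25-fold higher, beside the monocyte, neutrophil and lymphoid lists. Wfdc17, a secreted protein of activated macrophages, had 4887 units at 28 months, against 1850.5 units at 4 months, 2.64-fold higher. Of 3 measured red cell markers 1 was past 1.5-fold, Hbb-b2, a haemoglobin chain, whose 2 probe sets gave -0.08 and 0.87. Alas2, which starts haem synthesis in red cells, had 2062 units at 28 months and 2229 units at 4 months.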
